A study of Mus musculus with 12 samples.

Results

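The comparison described here is between R1 mouse embryonic stem cells (ESCs) in which Smarcd1 was knocked down, in the line labelled KD1, and R1 ESCs infected with a scrambled control, both after differentiation with retinoic acid. It rests on 6 of the 12 arrays of the series, chosen by their titles alone: 4 KD1 arrays and 2 scrambled arrays. All 6 came from cells of the same male line, kept before differentiation on embryonic fibroblast feeder cells blocked with mitomycin, and then differentiated by removing leukemia inhibitory factor and adding retinoic acid at 1 µM, labelled as 4 days. Undifferentiated KD1 and scrambled ESCs, 2 arrays each, shared the fit and gave the difference between the lines before differentiation. The 2 undifferentiated arrays labelled KD2 were left out of the fit, and none of the arrays given retinoic acid is labelled KD2. The labels speak of knockdown clones, and by the labels a single KD1 line stands against the scrambled line. The knockdown and any other difference between these lines therefore cannot be told apart. The titles call the arrays biological replicates, but the labels do not say how the replicate cultures were kept apart. The p-values cover only the spread seen among the arrays, and part of that spread may be technical.

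The product of Smarcd1, BAF60a, belongs to the SWI/SNF (BAF) complexes, which move nucleosomes with energy from ATP. Retinoic acid binds nuclear receptors that switch on Hox genes and other patterning genes, and it turns cultured ESCs into mixtures of embryonic and extraembryonic cell types. One of these is extraembryonic endoderm, whose parietal form lays down a thick basement membrane of laminins and type IV collagen under the control of GATA and SOX factors, while its visceral form takes up and secretes serum proteins. These are background facts and not results of the arrays.

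Each value below is a log2 summary of the probe set chosen for a gene, so a difference of 1 is a 2-fold difference. On the 6 arrays the values ran from 1.76 to 13.5, and the dimmest 40% of named genes lay below 4.46 to 4.63, depending on the array. A gene was tested when it exceeded that level on at least 2 arrays of the series, which left 12988 genes. Differences are KD1 minus scrambled ± SE from limma, and a gene was called when its Benjamini-Hochberg adjusted p was under 0.05. For genes, rose, fell, increase and decrease mean higher or lower in KD1 than in scrambled cells, not a change over time. The number of arrays limits the precision. Since the arrays read a whole culture, fewer cells of a type and less RNA per cell cannot be told apart.

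Before the results, the 4 KD1 arrays need a description, because arrays 3 and 4 stand apart from arrays 1 and 2. Pearson correlations over all probe sets were 0.990 to 0.993 among the KD1 arrays, 0.989 between the scrambled arrays and 0.967 to 0.977 between the groups. Between KD1 arrays 3 and 4 and KD1 arrays 1 and 2, 55 genes were higher and 27 lower by over 1 log2 unit with no overlap. The following examples were chosen after their values were seen. Kcnma1, a potassium channel gene, read 3.05, 2.84, 6.46 and 5.94 on KD1 arrays 1 to 4, against 3.08 and 2.75 on the scrambled arrays. The only other high values of Kcnma1 in the series were 7.37 and 9.14, on the undifferentiated arrays labelled KD2. Abi2 read 6.09, 6.45, 7.44 and 7.66 on KD1 arrays 1 to 4, against 7.83 and 7.7 in scrambled cells. In undifferentiated ESCs it read 6.33 and 6.56 in KD1, and 7.39 and 7.38 in KD2. Fmr1nb read 7.99, 7.88, 6.07 and 5.91 on KD1 arrays 1 to 4, against 6.38 and 6.34 in scrambled cells. Its ESC values were 8.3 and 8.63 in KD1, and 5.6 and 5.38 in KD2. Airn, the noncoding antisense partner of the imprinted Igf2r gene, read 3.50 and 3.53 on KD1 arrays 1 and 2 and 5.87 and 5.85 on arrays 3 and 4, against 6.57 and 6.36 in scrambled cells. Nanog, a core pluripotency factor, read 4.14, 4.71, 7.14 and 6.94 on KD1 arrays 1 to 4, against 7.40 and 7.43 in scrambled cells. The carbonic anhydrase gene Car4 went the other way, with 9.64, 9.41, 7.16 and 7.43 on KD1 arrays 1 to 4, against 8.26 and 7.70 in scrambled cells. Nanog did not pass the test (-1.68 ± 0.72, limma adjusted p = 0.0917), but did with KD1 arrays 1 and 2 alone (-2.98, limma adjusted p = 3.37e-05), while arrays 3 and 4 alone gave -0.37 with limma adjusted p = 0.149. Airn was called (-1.78, limma adjusted p = 0.0469) and lost the call, with adjusted p up to 0.199, when any 1 array other than KD1 array 3 or 4 was left out. In ESCs Bmper was higher in KD1 (5.71 and 5.75) than in KD2 (4.96 and 5.13). After retinoic acid, KD1 arrays 3 and 4 (10.4 and 10.18) exceeded arrays 1 and 2 (8.68 and 8.89) for it. The cause of this split and the line behind arrays 3 and 4 were not tested. The named genes among the 82 are given with their values on both pairs of arrays.

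**Figure D1:**
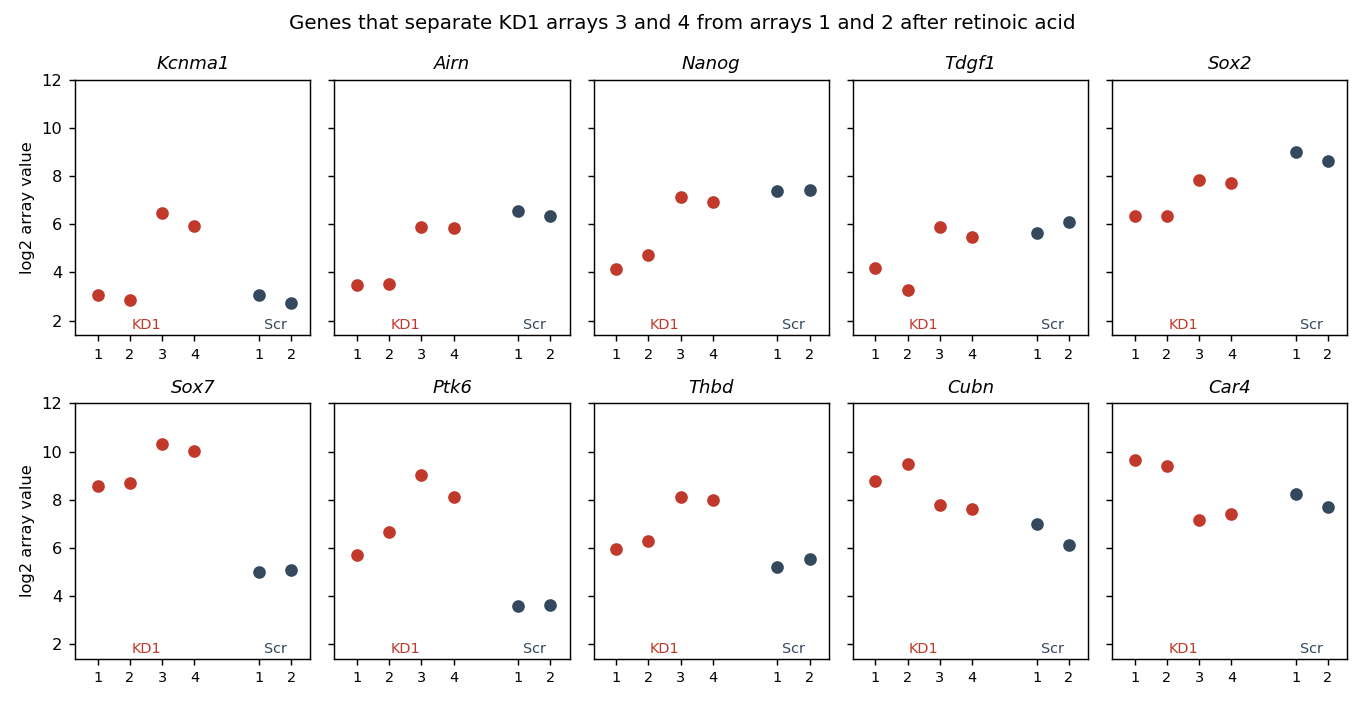
Log2 array values of 10 genes on the 4 KD1 arrays (red, left) and the 2 scrambled arrays (dark blue, right) after retinoic acid, 1 point per array, numbered by replicate. Kcnma1 was near 3 on KD1 arrays 1 and 2 and at 6.46 and 5.94 on arrays 3 and 4, and Sox7 was above both scrambled arrays on all 4 KD1 arrays.

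The lines also differed by chromosome. The 706 tested genes of chromosome 8 had a median difference of -0.31 after retinoic acid and -0.30 in undifferentiated ESCs, and 50 of them rose while 326 fell. Chromosome 14 had a median of 0.18 after retinoic acid and 0.00 in ESCs, with 116 of 451 genes higher and 43 lower. Of the other autosomes and chromosome X, none had a median beyond 0.09 in size after retinoic acid. Chromosome Y had 4 tested genes, of which 0 were higher and 3 lower. Its median was -2.16 after retinoic acid and -3.04 in ESCs. The Y-linked gene Uty read 3.19, 2.82, 2.69 and 3.15 in KD1 cells, against 7.64 and 7.30 in scrambled cells (-4.51 ± 0.20), and it differed by -4.64 in undifferentiated ESCs. Genes named below that lie on chromosome 8 or 14 are marked as such.

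**Figure D2:**
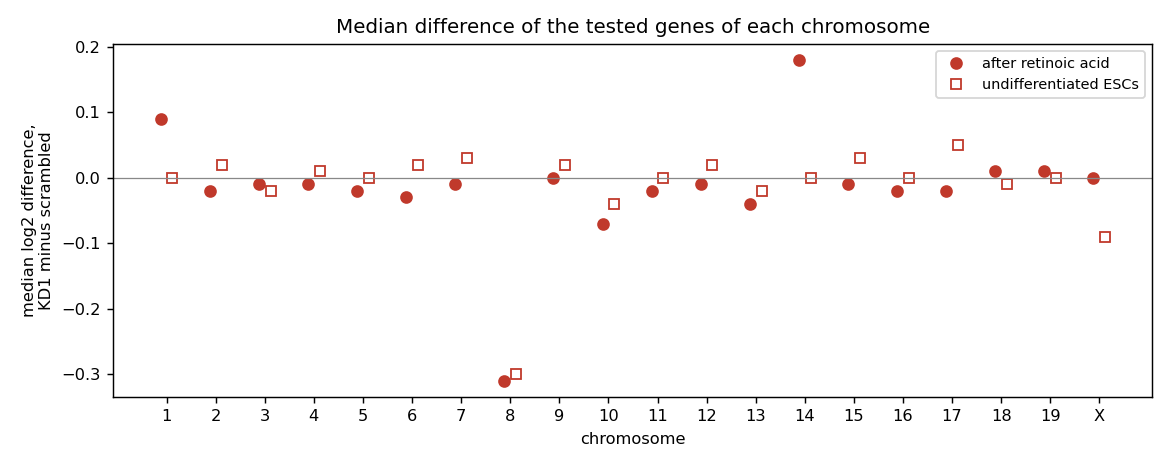
Median log2 difference, KD1 minus scrambled, of the tested genes of each autosome and of chromosome X, after retinoic acid (filled circles) and in undifferentiated ESCs (open squares). Chromosome 8 lay at -0.31 and -0.30, and chromosome 14 at 0.18 and 0.00.

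After 4 days of retinoic acid the KD1 cells carried high levels of many endoderm and basement membrane genes relative to scrambled cells. Many Hox, mesodermal, mesothelial, neural and cholesterol synthesis genes were lower. Of 10 tested genes for retinoic acid synthesis, binding and breakdown 5 were lower, while Cyp26a1 lay higher without overlap but was not called. In all, 4821 of 12988 genes were called, which is 37.1% of those tested. Of these 2399 were higher (18.5% of all tested) and 2422 lower (18.6%). This balance depended on the scaling: with array medians set equal, 2858 genes were higher and 2047 lower. With a 2-fold minimum added, 620 genes were higher and 592 lower, together 9.33% of those tested. Differences past 8-fold were seen for 40 higher (0.308%) and 22 lower genes (0.169%), and past 16-fold for 9 higher (0.0693%) and 3 lower (0.0231%). At an unadjusted p under 0.05, 5944 genes passed (45.8%). All 4821 called genes had the same direction in KD1 arrays 1 and 2 alone and in arrays 3 and 4 alone relative to the scrambled mean. Among them 4803 showed no overlap between the groups. The genes were called from these same arrays, which favours such agreement, so both counts are only descriptions. Over all tested genes, 26.5% were higher and 27.5% lower without overlap. The count was 4113 with KD1 arrays 1 and 2 only and 4551 with arrays 3 and 4 only. It fell to 2942 when the undifferentiated KD2 arrays were added to the fit. On these Smarcd1 read 8.56 and 7.16, against 8.67 and 8.68 in scrambled ESCs, so 1 of the libraries labelled KD2 stood near the scrambled level.

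Smarcd1 is the gene targeted by the knockdown. It read 6.36, 6.61, 6.50 and 6.44 in KD1 cells, against 8.84 and 8.64 in scrambled cells. All 4 KD1 arrays lay below both scrambled arrays, and the difference was -2.26 ± 0.10 (limma adjusted p = 2.06e-07), or 4.80-fold lower in KD1. In undifferentiated ESCs the difference was -0.91, and the interaction, the difference after retinoic acid minus that in ESCs, was -1.35 and passed the test (limma adjusted p = 0.000358).

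Of the 27 tested SWI/SNF subunit genes, 2 rose and 12 fell (51.9%, against 37.1% of all tested genes). Their median was -0.21, against -0.02 over all tested genes. The ATPase gene Smarca2 (BRM) rose to 7.96, 8.01, 7.88 and 8.17 in KD1 cells, against 5.83 and 6.31 in scrambled cells (1.94 ± 0.17, limma adjusted p = 1.16e-05). It had not differed in ESCs beyond the spread (-0.21, limma adjusted p = 0.578), and the interaction passed the test. The accessory subunit gene Bcl7a fell by 1.26 and the bromodomain subunit gene Brd7, on chromosome 8, fell by 1.25. Smarce1 (-0.94), Smarcc1 (-0.67) and Dpf3 (-0.67) were also called. The paralogs of Smarcd1 were not called: Smarcd2 differed by -0.19 and Smarcd3 by 0.29.

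**Figure D3:**
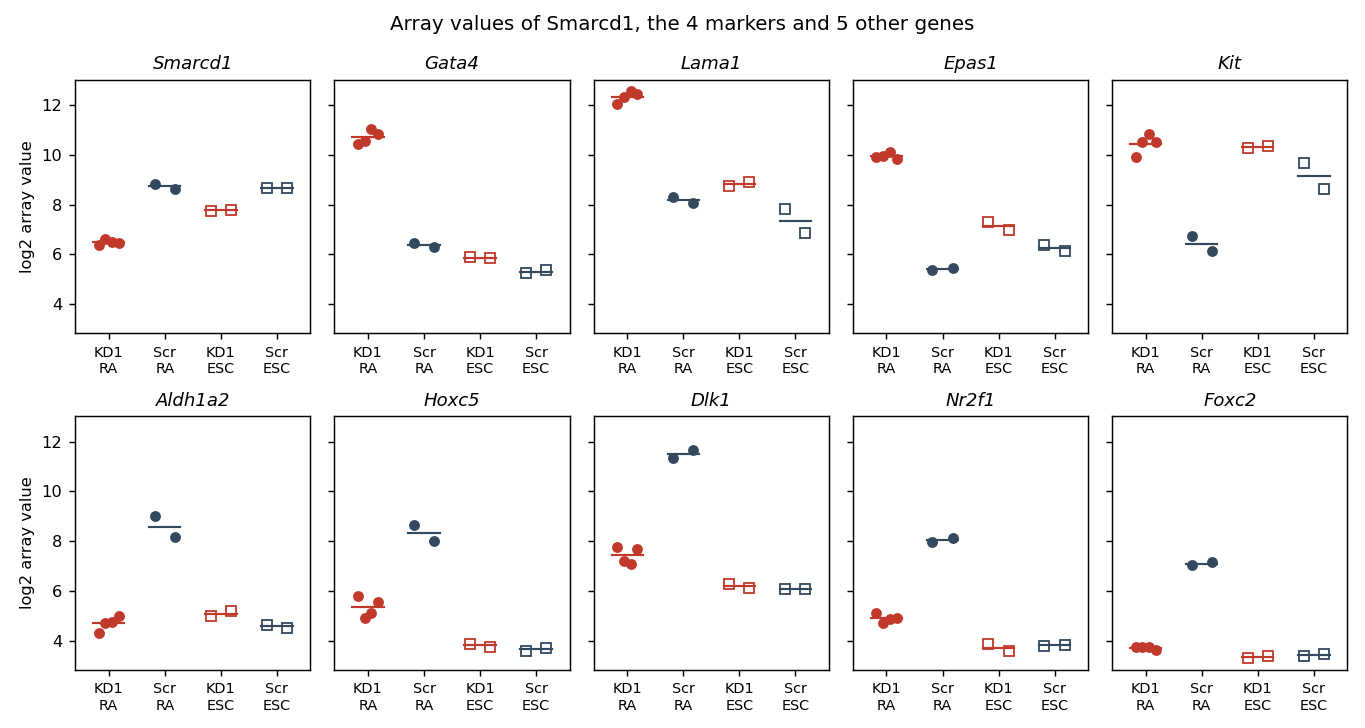
Log2 array values of Smarcd1, the markers Gata4, Lama1, Aldh1a2 and Hoxc5, and 5 other genes in KD1 (red) and scrambled cells (dark blue, Scr) after retinoic acid (RA, filled circles) and in undifferentiated ESCs (open squares), 1 point per array, with the group mean as a line. After retinoic acid the KD1 and scrambled arrays of these 10 genes do not overlap.

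The 15 largest increases with no overlap between the groups began with Epas1, which encodes the oxygen-regulated factor HIF-2 alpha. Epas1 read 9.91, 9.95, 10.11 and 9.81 in KD1 cells, against 5.35 and 5.43 in scrambled cells, a 23.5-fold difference (4.55 ± 0.13, limma adjusted p = 8.61e-09). Next came the endoderm factor gene Sox7 (4.35), the proteoglycan gene Srgn (4.34), Gata4 (4.34) and Klb (4.24), which encodes the FGF co-receptor beta-klotho. They were followed by Lama1 (4.16), the pepsinogen gene Pga5 (4.11), Glipr1 (4.09), the stem cell factor receptor gene Kit (4.02) and Fst (4.00), whose product follistatin binds activin. The remaining increases were the VEGF receptor gene Flt1 (3.97), the heparan sulfate sulfotransferase gene Hs3st1 (3.93), the hexokinase-like gene Hkdc1 (3.83), the prostaglandin transporter gene Slco2a1 (3.82) and the kinase gene Ptk6 (3.76). Ptk6 depended on the array pair: it read 5.72, 6.65, 9.04 and 8.12 on KD1 arrays 1 to 4, against 3.61 and 3.63 in scrambled cells, and the difference was 2.56 with arrays 1 and 2 and 4.96 with arrays 3 and 4. Ptk6 and Pga5 lay within the dimmest 40% of named genes on both scrambled arrays, so the sizes of their differences and their places in this order are uncertain.

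The 15 largest decreases without overlap leave out predicted genes, small RNAs, receptor-repertoire genes and Y-linked genes such as Uty (-4.51). Among these 15 the imprinted gene Dlk1, a Notch-related membrane protein, came first. Dlk1 read 7.75, 7.22, 7.08 and 7.70 in KD1 cells, against 11.36 and 11.68 in scrambled cells (-4.09 ± 0.19, limma adjusted p = 2.11e-07). The secreted Wnt antagonist gene Sfrp1 (-4.02), the secreted protein gene Crispld2 (-3.62), the forkhead factor gene Foxc2 (-3.37) and the matrix protease gene Mmp2 (-3.15) all lie on chromosome 8, whose median was -0.31. The retinoic acid synthesis gene Aldh1a2 fell by 3.88. Also lower were Lrrn1 (-3.53), Lrrn4 (-3.44), the uroplakin gene Upk3b (-3.35), the ephrin receptor genes Epha3 (-3.28) and Epha7 (-3.10), the guidance factor gene Slit2 (-3.14), the nuclear receptor gene Nr2f1 (-3.14), the imprinted zinc finger gene Plagl1 (-3.08) and Hapln1 (-3.05), which links hyaluronan to proteoglycans. Lrrn1, Foxc2, Upk3b, Epha3 and Hapln1 read 4.14 or less on all 4 KD1 arrays, within the dimmest 40% of named genes. Of the called genes named in the text, 19 lay within that range on all 4 KD1 arrays, 9 on both scrambled arrays and 1, Prdm1, on all 6, so the size of each of these differences is read against values with little signal. Beside those just given, they are the decreases of Uty, Angpt1, Hoxd4, Bnc1, Gpm6a, Isl1, Map2, Nnat, Bmp5, Mir17, Mir18, Mir19a, Mir19b-1 and Ifit2 and the increases of Frzb, Taf7l, Rian, Egln3, Foxf2, Hoxc13 and Hoxd13.

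Most endoderm transcription factors rose, with Gata4 and Sox7 among the 15 largest increases. Gata4, which drives endoderm and heart genes, read 10.45, 10.57, 11.05 and 10.82 in KD1 cells, against 6.47 and 6.30 in scrambled cells (4.34 ± 0.15, limma adjusted p = 4.71e-08). It lies on chromosome 14, whose median was 0.18. Sox7, on the same chromosome, read 8.58, 8.69, 10.32 and 10.01 on KD1 arrays 1 to 4, against 5.02 and 5.08 in scrambled cells, so arrays 3 and 4 were the higher pair and no KD1 array overlapped the scrambled ones. The difference was 4.35 ± 0.43, or 3.59 with arrays 1 and 2 and 5.12 with arrays 3 and 4. Sox17, which specifies endoderm, read 8.56, 8.95, 9.23 and 9.12 in KD1 cells, against 5.88 and 5.46 in scrambled cells (3.29 ± 0.18). The forkhead genes Foxq1 (3.36 ± 0.25) and Foxa2 (2.92 ± 0.21) rose as well, and so did Gata6 (1.91 ± 0.23), the factor that starts primitive endoderm. Gata6 differed by 1.66 already in undifferentiated ESCs, and its interaction did not pass the test (limma adjusted p = 0.66). Hnf4a, a liver and visceral endoderm factor, rose by 1.01 (limma adjusted p = 0.0285) but missed the threshold with KD1 arrays 1 and 2 only (limma adjusted p = 0.0587), without scrambled array 1 (0.161) and without scrambled array 2 (0.0946). Of 11 tested members of the list 7 rose and 2 fell (81.8%, against 37.1% of all tested genes, median 1.91). Foxa1 (-0.70) and Prdm1 (-0.57) were the genes that fell. Without scrambled array 1 the limma adjusted p was 0.0676 for Foxa1 and 0.111 for Prdm1, and Prdm1 also missed the threshold without scrambled array 2 (0.109) and with KD1 arrays 3 and 4 only (0.0699). Hhex was not called (0.24, limma adjusted p = 0.244).

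Of the 11 members of the basement membrane list 9 rose and 1 fell (90.9%, against 37.1% of all tested genes). The list had a median of 2.33, the highest of the 36 lists. Against the scrambled mean, its median was 1.58 and 1.93 on KD1 arrays 1 and 2 and 2.57 and 2.55 on arrays 3 and 4, and on array 1 the endoderm factor list was higher (1.76). Lama1, the laminin alpha 1 chain of the embryonic basement membrane, read 12.04, 12.32, 12.55 and 12.44 in KD1 cells, against 8.31 and 8.05 in scrambled cells (4.16 ± 0.23, limma adjusted p = 5.85e-07). Its partner chains Lamb1 (2.43 ± 0.14) and Lamc1 (2.67 ± 0.18), with which it forms laminin-111, rose less. The type IV collagen gene Col4a1 read 11.36, 11.59, 11.75 and 11.53 in KD1 cells, against 7.97 and 7.81 in scrambled cells (3.67 ± 0.13). Col4a2, its partner chain, read 11.11, 11.34, 11.42 and 11.20 in KD1 cells, against 7.92 and 7.84 in scrambled cells (3.39 ± 0.11). Both collagen genes lie on chromosome 8, where the median went the other way. In undifferentiated ESCs 4 list members were already called higher in KD1: Lama1 (1.47), Col4a1 (0.97), Col4a2 (0.85) and Hspg2 (0.65). Their interactions passed the test except that of Hspg2 (-0.07, limma adjusted p = 0.851). The linker protein gene Nid1 rose by 2.33 ± 0.38, with arrays 3 and 4 higher (10.94 and 10.52) than arrays 1 and 2 (9.41 and 9.76), against 7.67 and 7.99 in scrambled cells. Nid2 (1.08, chromosome 14), the collagen-binding protein gene Sparc (1.33) and the perlecan gene Hspg2 (0.58) rose as well, Hspg2 not past the threshold without scrambled array 1 (0.36, limma adjusted p = 0.113). Lama5, the alpha chain of most mature epithelial basement membranes, fell by 0.82 (limma adjusted p = 0.00305), and the agrin gene Agrn was not called (-0.43).

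Col4a1 and Col4a2 are transcribed in opposite directions from starts that are 21 bases apart in the RefSeq table, so they share promoter sequence. The Col4a2 window of 250 bases before and 50 after the start is shown because both genes moved together, with the 78 bases shared with the Col4a1 window in capitals (GRCm38.p6, chr8:11312555-11312854, plus strand).
Col4a2 promoter: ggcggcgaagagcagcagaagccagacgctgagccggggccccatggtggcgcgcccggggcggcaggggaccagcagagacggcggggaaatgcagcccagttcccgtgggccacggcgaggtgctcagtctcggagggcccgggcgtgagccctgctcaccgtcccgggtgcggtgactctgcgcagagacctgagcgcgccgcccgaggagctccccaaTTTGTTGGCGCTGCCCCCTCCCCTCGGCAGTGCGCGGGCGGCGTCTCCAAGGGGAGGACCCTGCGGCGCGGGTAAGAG
The GATA motif AGATAA was searched for on both strands in the windows of the 8 basement membrane genes that had one, and 0 held it, whereas 6.13% of the windows of tested genes did. Of the genes called over 2-fold higher 5.38% held it. This says only that these letters are not in these windows.

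Enzymes and chaperones that make collagen rose with it. The list held 14 tested members, of which 12 rose and 0 fell (85.7%, against 37.1% of all tested genes, median 1.21). The prolyl 4-hydroxylase subunit gene P4ha2 read 10.45, 10.45, 11.48 and 11.37 in KD1 cells, against 7.29 and 7.50 in scrambled cells (3.55 ± 0.29, limma adjusted p = 7.66e-06). P4ha1 (2.21 ± 0.20), the lysyl hydroxylase genes Plod2 (2.78 ± 0.11) and Plod3 (1.55 ± 0.13), and Crtap (1.52 ± 0.10), a member of the prolyl 3-hydroxylation complex, also rose. The prolyl 3-hydroxylase gene P3h1 (1.30) and the collagen chaperone gene Serpinh1 (1.17) were called as well. In undifferentiated ESCs P4ha2 (1.22) and Plod2 (0.90) were already called higher in KD1, and their interactions passed the test.

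Surface and secreted proteins of parietal endoderm were higher in 8 of 10 tested cases and lower in 0 (80%, against 37.1% of all tested genes). The list median was 1.76. Srgn rose to 10.46, 10.96, 11.12 and 10.90 in KD1 cells, against 6.95 and 6.10 in scrambled cells (4.34 ± 0.25). Fst read 11.12, 11.30, 11.88 and 11.78 in KD1 cells, against 7.44 and 7.60 in scrambled cells (4.00 ± 0.22). The parathyroid hormone receptor gene Pth1r (2.13), the PDGF receptor gene Pdgfra (2.47), the cathepsin L gene Ctsl (1.56), the coagulation inhibitor gene Tfpi (1.44) and Cited1 (1.82) rose too. Thbd, which encodes thrombomodulin, was called (1.7 ± 0.55, limma adjusted p = 0.0314), but the difference was 0.72 with KD1 arrays 1 and 2 and 2.68 with arrays 3 and 4. Thbd missed the threshold when the 6 retinoic acid arrays were fitted alone (limma adjusted p = 0.0519), without KD1 array 3 (0.0587), KD1 array 4 (0.0629), scrambled array 1 (0.172) and scrambled array 2 (0.1). The plasminogen activator genes Plat (0.16, chromosome 8) and Plau (-0.72, chromosome 14, limma adjusted p = 0.0503) were not called.

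Growth factor receptors and their ligands showed no common direction. Of 8 tested Kit and PDGF genes 2 rose and 4 fell (75%, against 37.1% of all tested genes). Kit read 9.91, 10.52, 10.84 and 10.51 in KD1 cells, against 6.72 and 6.12 in scrambled cells (4.02 ± 0.30), whereas its ligand gene Kitl fell by 0.67. In undifferentiated ESCs Kit read 10.26 and 10.34 in KD1 and 9.68 and 8.62 in scrambled cells. After retinoic acid KD1 cells thus stood near their ESC level of Kit, and scrambled cells below theirs. Pdgfra rose, while Pdgfrb (-1.44) and the ligand genes Pdgfc (-1.68) and Pdgfd (-0.72) fell. Pdgfc differed by -1.76 already in ESCs, and its interaction did not pass the test (limma adjusted p = 0.849). Of the 21 tested FGF genes 3 rose and 10 fell (61.9%, against 37.1% of all tested genes). Klb read 8.61, 8.78, 8.76 and 8.48 in KD1 cells, against 4.72 and 4.12 in scrambled cells (4.24 ± 0.18), and Fgfr4, the receptor it serves in liver, rose by 2.22 ± 0.19. Fgfr1 (-1.69, chromosome 8) and Fgfr2 (-1.78) fell. Among the ligands, Fgf15 fell by 2.36 and Fgf10 rose by 1.23, though with KD1 arrays 1 and 2 only Fgf10 did not pass (0.60, limma adjusted p = 0.0684), and it differed by 1.87 with arrays 3 and 4. Of 13 VEGF and angiopoietin genes 3 rose and 6 fell (69.2%, against 37.1% of all tested genes). Flt1 read 9.83, 9.98, 9.38 and 9.39 in KD1 cells, against 5.87 and 5.48 in scrambled cells (3.97 ± 0.33), and the ligand gene Vegfa rose by 0.86. The angiopoietin gene Angpt1 fell by 2.58. Leaving out scrambled array 1 took Fgf15, with -1.39, to a limma adjusted p of 0.0777, Vegfa to 0.0725 and Fgf10 to 0.17, and leaving out scrambled array 2 took Pdgfd to 0.206 and Fgf10 to 0.0784, while Fgf10 reached 0.0577 without KD1 array 4.

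Visceral endoderm genes gave a mixed picture. Of the 18 secreted proteins on the list, 10 lay below the filter, among them Afp, Alb, Apob and the fibrinogen genes, and 1 had no probe set that could be matched. Of the 7 tested, 2 rose and 1 fell (42.9%, against 37.1% of all tested genes), with a median of 0.24. Rbp4, the retinol carrier of serum, read 8.55, 9.21, 9.15 and 8.96 in KD1 cells, against 5.71 and 5.49 in scrambled cells (3.37 ± 0.17, limma adjusted p = 2.97e-07), whereas Apoe fell by 0.66. Without scrambled array 1 Apoe did not pass (-0.54, limma adjusted p = 0.0821). Ihh, a hedgehog ligand gene, was called (0.34, limma adjusted p = 0.0344), but not without KD1 array 2 (0.0558) or 3 (0.0759) or without scrambled array 1 (0.0761) or 2 (0.194), nor with KD1 arrays 1 and 2 only (0.111). Among 8 tested endocytic receptor genes 4 rose and 1 fell (62.5%, against 37.1% of all tested genes). The receptor-associated protein gene Lrpap1, a chaperone of these receptors, rose by 2.55 ± 0.11, and the megalin gene Lrp2 by 1.62 ± 0.35. The adaptor gene Dab2 (1.69) and the cubilin gene Cubn (1.85) were called, but both differed already in ESCs (2.05 and 2.92), and their interactions did not pass the test. Cubn had KD1 arrays 1 and 2 as the higher pair, at 8.77 and 9.47 on KD1 arrays 1 and 2, 7.80 and 7.60 on arrays 3 and 4, and 7.0 and 6.13 in scrambled cells. Without scrambled array 2 Cubn did not pass (1.41, limma adjusted p = 0.108). Lrp1 fell by 1.18.

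Epithelial and mesenchymal genes were divided. Regulators of the epithelial-mesenchymal transition rose in 2 and fell in 7 of 12 cases (75%, against 37.1% of all tested genes, median -0.64). Snai1, a repressor of E-cadherin, read 8.70, 8.73, 9.15 and 8.85 in KD1 cells, against 6.48 and 6.53 in scrambled cells (2.35 ± 0.14, limma adjusted p = 1.09e-06). Its relative Snai2 fell by 1.72, as did Twist1 (-1.35), Zeb1 (-1.08), Zeb2 (-0.70), the cadherin genes Cdh2 (-1.67) and Cdh11 (-2.33, chromosome 8), and the fibronectin gene Fn1 (-0.58, with a limma adjusted p of 0.0553 without scrambled array 2). Cdh2 differed by -2.18 already in undifferentiated ESCs, and its interaction did not pass the test (limma adjusted p = 0.231). The integrin gene Itga5 rose by 0.90, but missed the threshold with all 12 arrays in the fit (limma adjusted p = 0.0942). Among 17 keratin and junction genes 5 rose and 2 fell, 41.2% of them against 37.1% of all tested genes. The tight junction genes Ocln (1.18) and Cldn6 (1.10) rose, Ocln not past the threshold without scrambled array 2 (limma adjusted p = 0.0758). Krt19 was at 10.86, 10.95, 10.81 and 10.88 in KD1 cells, against 10.27 and 10.23 in scrambled cells, and was not called (0.63, limma adjusted p = 0.404), although it passed when the retinoic acid arrays were fitted alone (limma adjusted p = 0.00124). The undifferentiated arrays read 5.92 and 5.13 for Krt19 in KD1 ESCs and 8.22 and 5.49 in scrambled ESCs.

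Retinoid pathway genes fell or were not called. Of 10 tested genes for retinoic acid synthesis, binding and breakdown 0 rose and 5 fell (50%, against 37.1% of all tested genes). The list median was -0.61. Aldh1a2, the main enzyme of retinoic acid synthesis in the embryo, read 4.33, 4.73, 4.77 and 4.99 in KD1 cells, against 9.01 and 8.15 in scrambled cells (-3.88 ± 0.23, limma adjusted p = 7.53e-07). KD1 cells stood near the levels of undifferentiated ESCs, which averaged 5.10 ± 0.16 in KD1 and 4.58 ± 0.08 in scrambled cells (SD, n = 2 each). The binding protein genes Crabp1 (-2.90 ± 0.22) and Crabp2 (-1.80 ± 0.28) and the retinal reductase gene Dhrs3 (-1.80 ± 0.32) fell. Aldh1a1 differed by -0.86, by -0.36 with KD1 arrays 1 and 2 (limma adjusted p = 0.0742) and by -1.37 with arrays 3 and 4, and lost the call without any 1 of KD1 arrays 3 and 4, the scrambled arrays or the ESC arrays (limma adjusted p from 0.0502 to 0.221). Cyp26a1, the main enzyme of retinoic acid breakdown, stood at 12.27, 12, 12.05 and 12.07 in KD1 cells, against 10.54 and 10.32 in scrambled cells. Its groups did not overlap, but the difference of 1.66 ± 0.86 was not called (limma adjusted p = 0.155). The undifferentiated arrays, which share the estimate of spread, read 4.57 and 4.26 in KD1 ESCs and 8.90 and 4.39 in scrambled ESCs. With the 6 retinoic acid arrays fitted alone the same difference had a limma adjusted p of 2.11e-05.

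Of 8 tested retinoid and COUP-TF receptor genes 0 rose and 5 fell (62.5%, against 37.1% of all tested genes). Nr2f1 (COUP-TFI), an orphan receptor induced by retinoic acid, read 5.13, 4.70, 4.88 and 4.91 in KD1 cells, against 7.98 and 8.11 in scrambled cells (-3.14 ± 0.13). Nr2f2 (COUP-TFII) read 7.53, 7.10, 7.14 and 7.52 in KD1 cells, against 9.18 and 9.68 in scrambled cells (-2.11 ± 0.17). Nr2f6 (-1.34, chromosome 8), Rxra (-0.88) and Rara (-0.50) fell as well. Rarb, on chromosome 14, a classical target of retinoic acid, was at 9.38, 8.55, 8.96 and 9.25 in KD1 cells, against 8.75 and 9.18 in scrambled cells, and the groups overlapped (0.07 ± 0.24, limma adjusted p = 0.853).

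Hox genes, which give cells their position along the body axis, were lower in KD1 cells in all 4 clusters. Of 39 listed genes 27 were tested, and 2 rose and 22 fell (88.9%, against 37.1% of all tested genes), with a median of -1.04. Hoxc5 read 5.80, 4.93, 5.10 and 5.57 in KD1 cells, against 8.65 and 8.0 in scrambled cells (-2.98 ± 0.24, limma adjusted p = 7e-06). Hoxb5 (-1.97), Hoxc8 (-1.94), Hoxb2 (-1.93) and Hoxd4 (-1.53) fell without overlap. Hoxc4 read 5.80, 5.19, 5.44 and 5.10 in KD1 cells, against 8.59 and 6.39 in scrambled cells, and fell by 2.11 ± 0.45, with the scrambled arrays far apart. By cluster, the medians were -0.77 for 7 Hoxa, -1.31 for 8 Hoxb, -1.70 for 6 Hoxc and -0.75 for 6 Hoxd genes. All 8 tested Hoxb genes fell. By position, 13 of 14 genes numbered 1 to 5 and 9 of 11 numbered 6 to 9 fell, with medians of -1.27 and -0.78. The only tested genes numbered 10 to 13 were Hoxc13 (0.84) and Hoxd13 (0.53), and both rose. Hoxc13 read 4.77, 4.55, 4.66 and 5.06 in KD1 cells, against 3.85 and 3.98 in scrambled cells, close to the filter level, and Hoxd13 did not pass without scrambled array 1 (limma adjusted p = 0.103). In undifferentiated ESCs the median of the Hox list was 0.06 and 0 members were called.

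**Figure D4:**
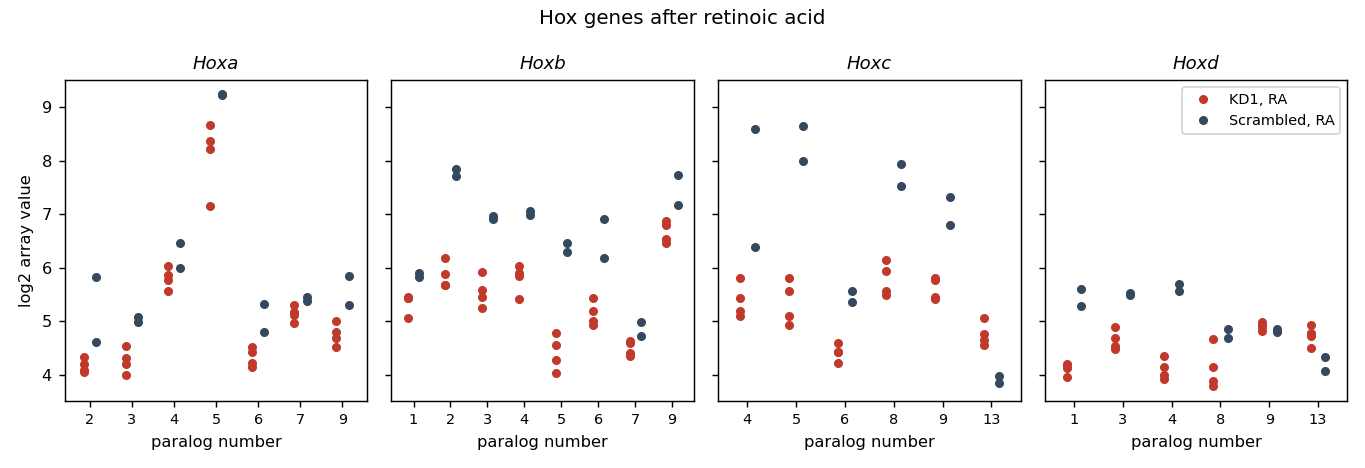
Log2 array values of the 27 tested Hox genes after retinoic acid, by cluster and paralog number, with the 4 KD1 arrays in red to the left of the 2 scrambled arrays in dark blue. The KD1 mean was lower for 22 called genes, and for Hoxc13 and Hoxd13 it was higher.

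The promoter windows of Hoxb4 (-1.22 ± 0.19) and Hoxc4 are shown because both genes fell and both windows hold 1 copy of the retinoid receptor motif AGGTCA, on the minus strand and so in capitals as its reverse complement, 81 bases before the start of Hoxb4 and 146 before that of Hoxc4. The windows lie at chr11:96318017-96318316 and chr15:103034145-103034444, both on the plus strand of GRCm38.p6 in the RefSeq table.
Hoxb4 promoter: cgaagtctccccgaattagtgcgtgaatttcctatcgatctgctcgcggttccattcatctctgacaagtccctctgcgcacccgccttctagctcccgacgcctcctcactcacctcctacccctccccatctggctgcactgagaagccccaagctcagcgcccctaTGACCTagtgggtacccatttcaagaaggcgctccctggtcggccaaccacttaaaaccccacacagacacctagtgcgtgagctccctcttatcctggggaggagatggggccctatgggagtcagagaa
Hoxc4 promoter: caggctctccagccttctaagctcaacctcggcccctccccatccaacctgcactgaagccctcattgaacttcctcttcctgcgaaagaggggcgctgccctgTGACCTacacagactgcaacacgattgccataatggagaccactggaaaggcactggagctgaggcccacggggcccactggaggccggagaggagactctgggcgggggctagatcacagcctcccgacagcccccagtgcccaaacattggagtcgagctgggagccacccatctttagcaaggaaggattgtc
Of the 15 tested Hox genes with a window, 6 held the motif, and of the tested genes with a window 12.1% did. The share was 9.29% for genes called over 2-fold lower, and 0 of the 8 tested genes of retinoic acid synthesis, binding and breakdown with a window held the motif. A match of 6 bases is a description of the sequence and not evidence of binding.

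TALE homeobox proteins bind DNA together with Hox proteins. They were lower for 6 of 8 tested genes and higher for 1 (87.5%, against 37.1% of all tested genes). Meis2 read 7.80, 7.45, 7.70 and 8.11 in KD1 cells, against 9.60 and 9.84 in scrambled cells (-1.95 ± 0.17). Pbx3 (-1.30), Pknox2 (-1.24), Meis1 (-0.81), Pbx2 (-0.75) and Pbx4 (-0.37, chromosome 8) fell, Meis3 rose by 0.36, and Pknox1 was not called (-0.23). With all 12 arrays Pbx2 missed the threshold (limma adjusted p = 0.0592). With 1 array left out, limma adjusted p reached 0.266 for Pbx4 (without scrambled array 2, and over 0.05 also without KD1 array 1 or 3) and 0.147 for Meis3 (without scrambled array 1, and 0.0613 without scrambled array 2).

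Of 9 tested mesothelial genes 0 rose and 7 fell (77.8%, against 37.1% of all tested genes). Their median was -1.63, the lowest of the 36 lists. Against the scrambled mean, the median was -0.99 and -1.12 on KD1 arrays 1 and 2 and -2.30 and -2.08 on arrays 3 and 4. On array 2 the Hox list was lower (-1.13), and with arrays 1 and 2 only the mesothelial median was -1.05. Mesothelium is the epithelium that lines the body cavities and arises from mesoderm. Upk3b, one of its surface proteins, read 4.12, 4.00, 3.88 and 4.14 in KD1 cells, against 7.43 and 7.35 in scrambled cells (-3.35 ± 0.11, limma adjusted p = 2.67e-08). Lrrn4 read 3.99, 4.33, 4.32 and 4.56 in KD1 cells, against 7.93 and 7.55 in scrambled cells (-3.44 ± 0.28). Bnc1, a zinc finger factor of mesothelium, fell by 2.88 ± 0.14, with KD1 values of 3.54 to 3.88 near background, and Wt1, a factor of mesothelium and kidney, fell by 2.18 ± 0.20. Podxl read 9.39, 9.18, 7.94 and 8.16 on KD1 arrays 1 to 4, against 10.22 and 10.37 in scrambled cells, and differed by -1.63, by -1.01 with arrays 1 and 2 and by -2.25 with arrays 3 and 4. Gpm6a (-0.99, chromosome 8) and Upk1b (-0.79) were lower as well. In ESCs Gpm6a differed already by -1.47, and its interaction did not pass the test (limma adjusted p = 0.539). Gpm6a lost the call without any 1 of the 6 arrays (limma adjusted p from 0.0522 to 0.223), and Upk1b without scrambled array 1 (0.108). Msln, the mesothelin gene, was at 4.10 to 4.44 in KD1 cells, against 4.41 and 4.43 in scrambled cells, and was not called.

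Among 18 tested mesodermal transcription factor genes 4 rose and 9 fell (72.2%, against 37.1% of all tested genes), with a median of -0.59. Foxc2 read 3.74, 3.77, 3.76 and 3.63 in KD1 cells, against 7.04 and 7.15 in scrambled cells (-3.37 ± 0.09, limma adjusted p = 8.61e-09). The T-box genes Tbx2 (-1.60) and Tbx18 (-1.41), the heart factor genes Hand2 (-1.06, chromosome 8) and Isl1 (-1.05), and Foxc1 (-1.03) fell, and Foxf2 rose by 1.23. Fibroblast and feeder genes moved the same way: of 19 tested members 1 rose and 9 fell (52.6%, median -0.74). Their summed level on the log2 scale was 13.05 to 13.34 in KD1 cells, against 13.38 to 13.77 in scrambled cells, and the ranges did not overlap. Col1a2 (-1.80), Col3a1 (-1.71), Dcn (-1.58), Loxl1 (-1.44) and Mmp2 fell, whereas Ccn2, a matrix growth factor gene, rose by 2.42. The part of carried-over feeder cells in the decrease of mesodermal and mesothelial genes was not tested. The median difference of the feeder list was -0.62 in undifferentiated ESCs, while that of the mesothelial list was -0.42 and that of the mesodermal list 0.07.

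Neural genes were lower or not called: of 18 tested 0 rose and 10 fell (55.6%, against 37.1% of all tested genes). Their median was -0.66. Pax6 fell by 2.43 ± 0.27, Zic1 by 1.66, Zic2, on chromosome 14, by 1.59, Ncam1 by 1.42, Map2 by 1.39 and Pax3 by 1.29. Sox2, which marks both neural progenitors and pluripotent cells, read 6.35, 6.35, 7.84 and 7.70 on KD1 arrays 1 to 4, against 9.0 and 8.63 in scrambled cells. It fell by 1.75 ± 0.40, or by 2.46 with arrays 1 and 2 and 1.04 with arrays 3 and 4. Without scrambled array 1 Sox2 did not pass (-1.57, limma adjusted p = 0.0615).

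Pluripotency genes did not move one way. Of 24 tested 7 rose and 3 fell (41.7%, against 37.1% of all tested genes), with a median of -0.01. Klf4 read 8.15, 8.69, 8.70 and 8.66 in KD1 cells, against 5.47 and 5.35 in scrambled cells (3.14 ± 0.30, limma adjusted p = 2.19e-05). In undifferentiated ESCs Klf4 averaged 9.19 in KD1 and 7.56 in scrambled cells, so neither line exceeded its ESC level. Klf5 (1.88, chromosome 14), Sall4 (1.46), Dnmt3l (1.41), Dppa4 (1.09) and Dppa5a (0.88) rose, as did Pou5f1 (Oct4, 0.85 ± 0.20), though not past the threshold without scrambled array 1 (0.79, limma adjusted p = 0.0635). Pou5f1 averaged 6.70 in KD1 and 5.86 in scrambled cells after retinoic acid, far below its ESC means of 10.55 and 10.38. The Nodal co-receptor gene Tdgf1 was not called (-1.16, limma adjusted p = 0.134). It read 4.20, 3.26, 5.89 and 5.48 on KD1 arrays 1 to 4, against 5.64 and 6.10 in scrambled cells. Of 13 genes of the primed epiblast 2 rose and 6 fell, led by Sfrp2 (-2.14), Fgf5 (-1.91) and the methyltransferase gene Dnmt3a (-1.54), while its relative Dnmt3b rose by 0.92 (limma adjusted p = 0.0752 without scrambled array 2). The share called in the primed epiblast list was 61.5%. In undifferentiated ESCs this list had a median of -1.01, with 7 members called lower and 0 higher, against a median of -0.31 after retinoic acid. Fgf5 had differed by -2.81 in ESCs, and Dnmt3b was called lower there (-1.22). Of 10 primitive streak genes 0 rose and 1 fell (10%), Nodal (-1.03), which was also called lower in ESCs (-0.80). Of 10 trophectoderm genes 40% were called, close to the 37.1% of all tested genes. Of these 1 rose, Tead4 (1.17), and 3 fell, Cdh3 (-2.48, chromosome 8), Gata3 (-1.28) and Gata2 (-1.20). In the germline list 3 of 15 rose and 4 fell (46.7%, against 37.1% of all tested genes). Beside Kit the largest increase was Taf7l (3.14 ± 0.20). Of 8 endothelial and blood genes 2 rose and 1 fell (37.5%, close to the 37.1% of all tested genes), led by the blood factor gene Runx1, at 7.85, 8.03, 7.36 and 7.50 in KD1 cells, against 5.10 and 5.10 in scrambled cells (2.59 ± 0.19).

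Imprinted genes, expressed from 1 parental copy, were lower for 12 of 23 tested members and higher for 3 (65.2%, against 37.1% of all tested genes). The Dlk1-Dio3 region split: Dlk1 fell, while the noncoding RNA genes Meg3 and Rian, expressed from the other parental copy, rose. Meg3 read 8.95, 8.69, 8.71 and 8.67 in KD1 cells, against 5.68 and 6.13 in scrambled cells (2.85 ± 0.15), and Rian 5.47, 5.76, 5.58 and 5.79 in KD1 cells, against 3.16 and 3.52 in scrambled cells (2.31 ± 0.24). In undifferentiated ESCs the differences were 3.34 for Meg3 and 2.73 for Rian, and their interactions did not pass the test (limma adjusted p = 0.156 for Meg3 and 0.472 for Rian), whereas Dlk1 differed by 0.11 in ESCs. Plagl1 read 6.79, 6.99, 6.97 and 7.50 in KD1 cells, against 10.05 and 10.24 in scrambled cells. Nnat (-2.59), the cell cycle inhibitor gene Cdkn1c (-2.52), Mest (-2.05) and the growth factor gene Igf2 (-1.77) fell.

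Signalling antagonists were also split. Of 18 BMP genes 5 rose and 9 fell (77.8%, against 37.1% of all tested genes). Bmp2 rose by 2.75 ± 0.30. Bmper rose by 2.48 ± 0.42, or by 1.72 with KD1 arrays 1 and 2 and 3.23 with arrays 3 and 4. The BMP targets Id2 (-2.15), Id3 (-1.77) and Smad6 (-1.84) and the ligand gene Bmp5 (-1.96) fell. Id4 rose by 1.79. Of 10 Wnt antagonist genes 3 rose and 4 fell (70%, against 37.1% of all tested genes). Sfrp1 read 5.68, 5.75, 5.48 and 5.43 in KD1 cells, against 9.34 and 9.87 in scrambled cells (-4.02 ± 0.15), and Sfrp2 (-2.14), Notum (-1.48) and Dkk2 (-1.27) fell. Dkk2 differed by -0.68 with KD1 arrays 1 and 2 (limma adjusted p = 0.0643) and by -1.85 with arrays 3 and 4. Frzb, of the same family as Sfrp1, read 7.01, 7.38, 7.91 and 7.63 in KD1 cells, against 4.36 and 4.15 in scrambled cells (3.22 ± 0.23). Dkk1 (0.72) and Dkk3 (0.59) rose. Without scrambled array 2 the limma adjusted p was 0.0833 for Dkk1, 0.153 for Dkk2 and 0.193 for Dkk3, and Dkk2 (0.0691) and Dkk3 (0.0676) also missed the threshold without scrambled array 1, and Dkk3 without KD1 array 3 (0.0624) or 4 (0.0632).

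A microRNA cluster was examined after its values were seen. The host gene Mir17hg on chromosome 14 (median 0.18) carries the cluster of miR-17 and its neighbours, whose microRNAs restrain the cell cycle brakes and pro-apoptotic genes. The mature sequences of the 5 members with a probe set of their own are shown, grouped by seed, because members with the same seed bind the same kind of site. The seed, bases 2 to 8, is in capitals. The sequences come from RefSeq on GRCm38.p6.
miR-17-5p: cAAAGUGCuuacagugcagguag
miR-20a-5p: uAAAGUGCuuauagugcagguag
miR-18a-5p: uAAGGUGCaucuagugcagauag
miR-19a-3p: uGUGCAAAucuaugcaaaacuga
miR-19b-3p: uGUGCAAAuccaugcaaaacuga
miR-17-5p and miR-20a-5p share 1 seed and miR-19a-3p and miR-19b-3p another, and miR-18a-5p has its own. The 5 hairpins lie on the plus strand at chr14:115043671-115044391, a span of 721 bases. Mir18 read 3.87, 4.01, 4.32 and 3.93 in KD1 cells, against 6.67 and 5.58 in scrambled cells (-2.09 ± 0.27, limma adjusted p = 0.000157). Mir19b-1 (-2.29), Mir19a (-1.99), Mir20a (-1.99), Mir17 (-1.65) and the host transcript Mir17hg (-1.38) fell as well, each without overlap between the groups. Lack of overlap was common, since 27.5% of all tested genes were lower without it. In undifferentiated ESCs these genes differed by -0.20 to -0.06 and none was called, and all 6 passed the interaction test. The probe sets lie in a single primary transcript, so they are not independent of each other, and they may read that transcript rather than the mature microRNAs.

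Metabolic genes gave contrasting lists. Of 20 glycolysis and hypoxia genes 15 rose and 0 fell (75%, against 37.1% of all tested genes), with a median of 0.88. The mitophagy gene Bnip3 read 9.35, 9.83, 9.40 and 9.37 in KD1 cells, against 6.56 and 6.89 in scrambled cells (2.76 ± 0.21). The phosphofructokinase gene Pfkl (1.99 ± 0.11), the glucose transporter gene Slc2a3 (1.81 ± 0.15), the oxygen sensor gene Egln3 (1.68), the lactate transporter gene Slc16a3 (1.39) and Tpi1 (1.13) rose. In undifferentiated ESCs the median of the list was 0.02. Of 20 cholesterol synthesis genes 2 rose and 15 fell (85%), with a median of -1.01. Idi1 read 7.27, 6.99, 6.70 and 6.80 in KD1 cells, against 9.41 and 8.81 in scrambled cells (-2.17 ± 0.18), and Msmo1 (-2.16, chromosome 8), Tm7sf2 (-1.79), Hmgcs1 (-1.46), Sqle (-1.41) and Fdps (-1.39) fell. Insig1, which holds back the activation of this pathway, read 11.46, 12.02, 11.98 and 11.72 in KD1 cells, against 9.96 and 9.69 in scrambled cells (1.97 ± 0.16), and Ebp (0.70) was the other gene that rose.

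Growth and stress lists had medians nearer 0, and 4 of these 5 lists were called at shares near the 37.1% of all tested genes: 36.4% of the polycomb, 39.3% of the cell cycle, 40% of the interferon and 41.2% of the amino acid stress genes. Of 28 cell cycle genes 0 rose and 11 fell, with a median of -0.25, led by the cyclin gene Ccnd1 at 8.41, 8.17, 8.15 and 8.57 in KD1 cells, against 10.10 and 10.18 in scrambled cells (-1.82 ± 0.14). Of 17 p53 target genes 8 rose and 1 fell (52.9%, median 0.26). In undifferentiated ESCs 9 had been higher, and the median there was 0.59. Of 17 amino acid stress genes 5 rose and 2 fell, led by Phgdh (-1.17), and of 10 interferon genes 2 rose and 2 fell, led by Ifit2 (-1.34). Of 22 polycomb genes 3 rose and 5 fell. Pcgf5, a subunit of a variant polycomb complex, read 9.88, 9.89, 9.57 and 9.75 in KD1 cells, against 6.88 and 6.84 in scrambled cells (2.92 ± 0.16, limma adjusted p = 5.79e-07), and Cbx2 (-1.15) and the methyltransferase gene Ezh2 (-0.69) fell, Ezh2 not past the threshold with all 12 arrays (0.0649).

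**Figure D5:**
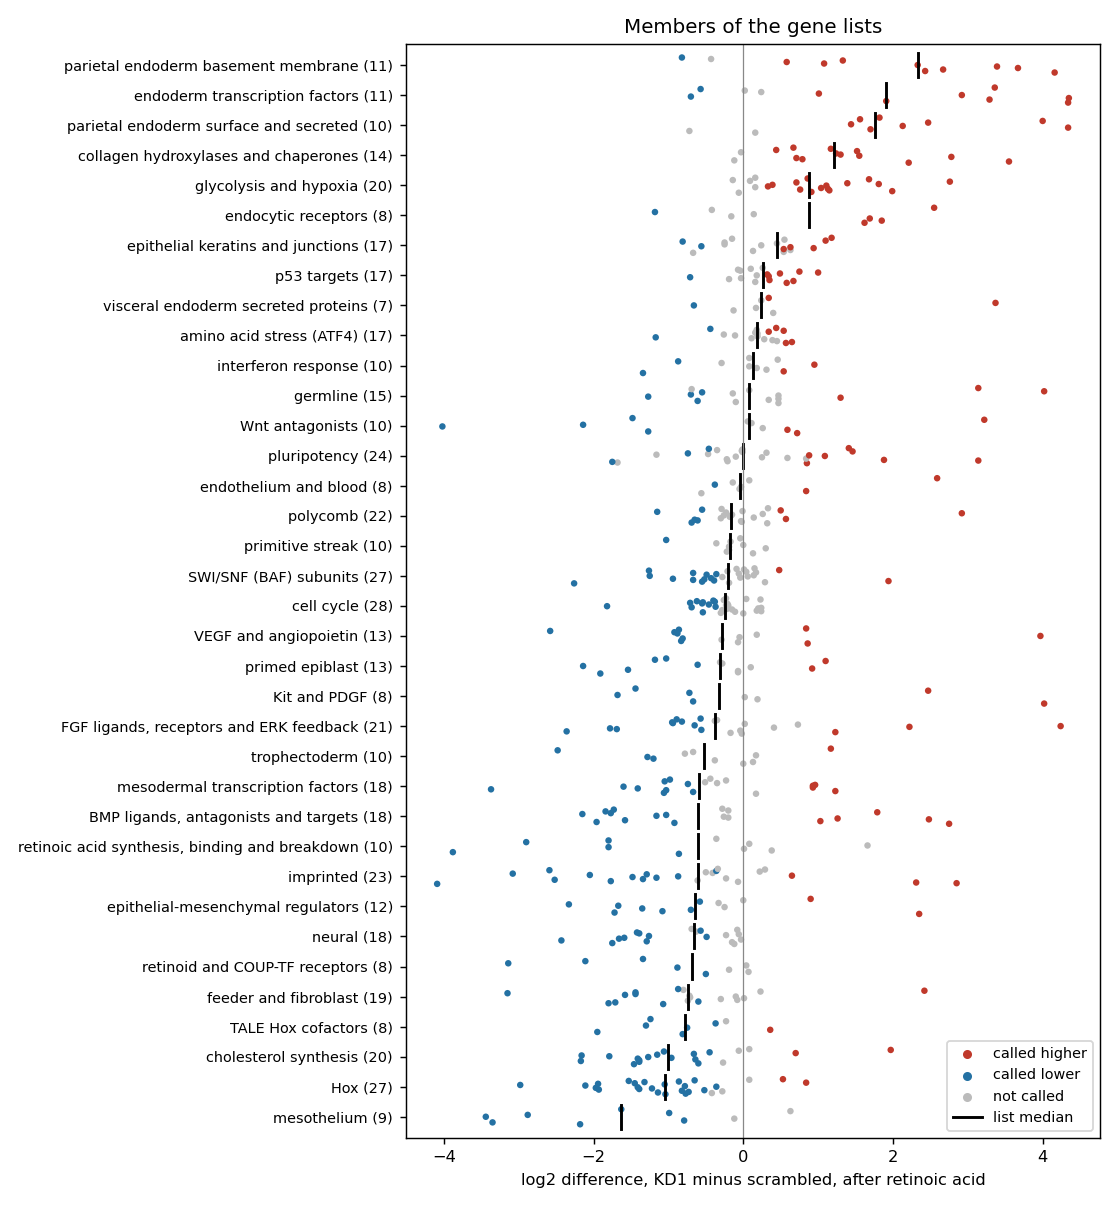
Log2 difference, KD1 minus scrambled after retinoic acid, of every tested member of 36 gene lists, sorted by list median (black bar), with the number tested in parentheses. Red points were called higher, blue points lower and grey points were not called. The basement membrane list has the highest median (2.33) and the mesothelial list the lowest (-1.63), though on single KD1 arrays they ran from 1.58 to 2.57 and from -2.30 to -0.99.

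Most genes called after retinoic acid were not called between the same lines before it. In undifferentiated ESCs 1057 genes were called (8.14%), 417 higher (3.21%) and 640 lower (4.93%). Of the 4821 genes called after retinoic acid, 145 were higher and 362 lower in both states, 50 were higher after retinoic acid and lower in ESCs, and 43 the reverse. A further 2204 higher and 2017 lower genes were not called in ESCs. The interaction, which tests whether the KD1 difference itself differed between the states, was called for 2399 genes (18.5%), with the more positive difference after retinoic acid for 1324 (10.2%) and the more negative for 1075 (8.28%), or for 1601 and 920 with array medians set equal. All 32 genes examined for it, Smarcd1, the 4 markers and the other genes of the largest increases and decreases, passed that test. Most of them were chosen by their difference after retinoic acid, which enters the interaction, so this count is a description. The interaction count was 1024 with the KD2 arrays added, 1517 without undifferentiated KD1 array 2 and 1579 without scrambled array 2 after retinoic acid.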

How the data were processed

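Expression was measured on mouse Affymetrix gene arrays, and the authors deposited 1 log2 value per probe set and array, made with RMA per the submitters' processing notes. For RMA, no version, software or annotation is named: not given in the sources used here. RMA forces the arrays to 1 distribution, so a shift of most genes at once cannot be seen. Of 35556 probe sets, 21789 had exactly 1 gene symbol in the platform table, 1621 had several and 12146 were not listed. The probe set with the highest mean over all 12 arrays stood for each of 19938 genes, and 999 genes had more than 1 to choose from. Genes entered the test if they exceeded percentile 40 of an array on 2 arrays or more.

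The deposited log2 values of 10 arrays were fitted with limma 3.58.1 in R 4.3.3 (lmFit and eBayes, 6 residual and 4.63 prior degrees of freedom, two-sided, Benjamini-Hochberg adjustment over all 12988 genes), in a model with a mean for each of the 4 groups. The contrasts were KD1 minus scrambled after retinoic acid, the same in ESCs, and the difference of the 2. Replicate numbers were checked for pairing: the deviations of same-numbered KD1 and scrambled arrays correlated at 0 and -0.077. The deviations of the 2 scrambled arrays mirror each other, and KD1 arrays 3 and 4 have no scrambled partner. The check therefore gave no sign of pairing but cannot exclude it. The tables were handled in Python 3.11.15 using pandas 2.3.3 together with numpy 2.4.6, with matplotlib 3.10.9 for the figures. The fit was tested on simulated data. Alternatives were the arrays in the fit, the scaling, the filter, the choice of probe set, the intensity trend, array weights, a replicate block, the thresholds, the KD1 array pairs, the chromosomes and each array left out. Leaving out each ESC array was chosen after seeing the data.

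The genes named are Smarcd1, the 4 markers, the 15 largest increases and decreases without overlap (leaving out predicted genes, small RNAs, Y-linked and receptor-repertoire genes), and from each gene list the called members that changed most, up to 6, or every member of lists of 12 or fewer, shortened here to those that show the list. The members and lists were chosen with earlier results of these data known, and other genes named were chosen after their values were seen.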

Additional observations from a re-analysis of the deposited data

Results flagged for a closer look

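The KD1 difference after retinoic acid departed from that in undifferentiated ESCs for 2399 genes, by the interaction term of the limma fit. All 32 genes examined, most of them chosen by their large difference after retinoic acid, passed that test, with adjusted p from 1.46e-06 for Foxc2 to 0.0381 for Ptk6. The difference after retinoic acid minus that in ESCs was positive, in log2 units, for Gata4 (3.78), Lama1 (2.68), Epas1 (3.68), Sox7 (3.82), Srgn (1.57), Klb (2.95) and Pga5 (3.82). It was also positive for Glipr1 (3.68), Kit (2.87), Fst (3.90), Flt1 (4.95), Hs3st1 (3.25), Hkdc1 (3.68), Slco2a1 (3.29) and Ptk6 (3.64). The same quantity was negative for Smarcd1 (-1.35), Aldh1a2 (-4.39), Hoxc5 (-3.12), Dlk1 (-4.20), Sfrp1 (-4.36), Crispld2 (-3.57), Lrrn1 (-3.12) and Lrrn4 (-2.37). Foxc2 (-3.28), Upk3b (-3.46), Epha3 (-2.85), Mmp2 (-2.25), Slit2 (-2.93), Nr2f1 (-3.05), Epha7 (-1.86), Plagl1 (-3.20) and Hapln1 (-2.96) followed. Flt1 had the opposite sign in ESCs (-0.98), but was not called there (limma adjusted p = 0.149). Other opposite signs, as for Aldh1a2 (0.52) and Sfrp1 (0.33), were not called either. Srgn (2.77), Lama1 (1.47), Klb (1.28) and Epas1 (0.87) were already called higher in KD1 ESCs. Epha7 (-1.25) and Smarcd1 (-0.91) were already called lower.

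Among 224 of the named genes, 10 had 1 KD1 array after retinoic acid that lay far from the other 3. Chance alone does this for about 1 in 20 groups. The far array was low for Serpinh1 (9.89, the others at 10.29 to 10.36), Crabp2 (6.84, the others at 7.68 to 7.85), Klf4 (8.15, the others at 8.66 to 8.70) and Mir19a (2.75, the others at 3.24 to 3.33). It was high for Zic2 (5.20, the others at 5.02 to 5.04), Meg3 (8.95, the others at 8.67 to 8.71), Notum (5.80, the others at 5.13 to 5.20) and Dkk1 (7.18, the others at 6.73 to 6.78). It was also high for Bnip3 (9.83, the others at 9.35 to 9.40) and Fdps (7.70, the others at 7.41 to 7.46).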

How the results depend on the processing

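The number of genes called after retinoic acid was 4821. It fell to 2942 with all 12 arrays in the fit, to 3207 at adjusted p under 0.01 and to 1212 with a 2-fold minimum. Leaving out 1 array at a time gave 3314 to 4910. The replicate block gave 4064, and whether the replicate numbers pair the samples could not be settled. The remaining alternatives stayed within 1.5 times of 4821, from 4106 without chromosomes 8, 14, X and Y to 4930 with an intensity trend. The setting without these chromosomes drops their called genes as well, so its lower count is no test of the calls. For the interaction, called for 2399 genes, the count was 1024 with all 12 arrays, 1075 at adjusted p under 0.01, 1153 with a 2-fold minimum and 2055 with the replicate block. Leaving out 1 array gave 1517 to 2382, the lowest without undifferentiated KD1 array 2, and 1579 without scrambled array 2 after retinoic acid. The 6 retinoic acid arrays alone give no interaction. Smarcd1 differed by -2.37 to -2.16 over all alternatives (-2.25 with the replicate block, limma adjusted p = 0.000134). Of 207 named called genes, 0 changed sign and 177 kept the call under every alternative at adjusted p under 0.05. The other 30 lost it under at least 1, among them 27 with 1 array left out and 13 with all 12 arrays. KD1 arrays 1 and 2 only ended the calls of Hnf4a, Fgf10, Vegfa, Ihh, Aldh1a1, Pbx4, Meis3, Gpm6a, Upk1b, Dkk2 and Dkk3, and arrays 3 and 4 only those of Prdm1, Pdgfd, Pbx4, Meis3 and Gpm6a. Of 36 list medians 5 changed sign, the largest of them 0.32 in size. Median centring made 58.3% of the calls higher, against 49.8%. The cause was not tested. The number of arrays, above all the 2 scrambled ones, limits the precision, and values near the filter level of 4.46 to 4.63 hold little signal over background.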
